A study of Mus musculus with 2 samples.

Results

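The 9 Ly6 genes described here (Ly6c1, Ly6c2, Ly6g, Ly6a, Ly6e, Ly6d, Ly6i, Ly6k and Ly6h) were taken by gene name from the 34745 genes of the deposited data. Their read counts and FPKM, a measure of level per gene length and per library total, were followed in both libraries. Bone marrow cells of C57BL/6 mice were cultured for 7 days with the growth factor GM-CSF alone (CHBP- M-MDSC) or with GM-CSF and cyclic helix B peptide (CHBP+ M-MDSC). CHBP is a peptide derived from erythropoietin (EPO) that does not drive red cell formation, and M-MDSCs are monocytic myeloid-derived suppressor cells. The study defines M-MDSCs as CD11b+ Ly6G- Ly6C high cells, so 2 of the defining antigens are products of the genes described here. RNA was taken after flow cytometry, and the gate set for the sequenced cells is not given in the sources used here. The label of the CHBP+ culture gives the strain as C57BL/7, against C57BL/6 in the other label and in the methods. Each condition was sequenced as 1 library, with total counts of 16484504 (CHBP-) and 16280466 (CHBP+), and how many mice each library holds is not given in the sources used here. With no replicates, what CHBP did and how else the libraries differed cannot be told apart. In bulk RNA, fewer cells that express a gene and less RNA per cell cannot be told apart either.

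Ly6 proteins are small, cysteine-rich proteins that are mostly held at the outer face of the cell membrane by a glycosylphosphatidylinositol (GPI) anchor. In mouse bone marrow they serve as surface markers of lineage and maturation. Ly6C, encoded by Ly6c1 and Ly6c2, is high on inflammatory monocytes, and Ly6G marks neutrophils. Ly6a encodes Sca-1, which is used to isolate hematopoietic stem cells, and Ly6d marks lymphoid progenitors that are bound for the B cell lineage. Ly6e encodes a broadly expressed surface protein that, like Sca-1, is induced by interferon. Ly6k is known mainly from testis and Ly6h mainly from brain.

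The Ly6C antigen is encoded by a pair of near-identical genes. The coding sequences of Ly6c1 and Ly6c2 in the GENCODE M1 annotation each have 396 bases and differ at 9 of them (97.7% identity). Their bases 1 to 300, which hold 7 of the differences, are shown because reads have to be divided between them, and capitals mark the differing bases.
Ly6c1: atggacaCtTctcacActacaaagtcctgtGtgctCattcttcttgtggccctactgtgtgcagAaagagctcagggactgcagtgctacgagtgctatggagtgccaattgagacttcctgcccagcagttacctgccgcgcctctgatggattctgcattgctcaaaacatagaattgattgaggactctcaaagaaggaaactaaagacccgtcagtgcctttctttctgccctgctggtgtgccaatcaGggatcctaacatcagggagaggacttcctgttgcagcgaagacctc
Ly6c2: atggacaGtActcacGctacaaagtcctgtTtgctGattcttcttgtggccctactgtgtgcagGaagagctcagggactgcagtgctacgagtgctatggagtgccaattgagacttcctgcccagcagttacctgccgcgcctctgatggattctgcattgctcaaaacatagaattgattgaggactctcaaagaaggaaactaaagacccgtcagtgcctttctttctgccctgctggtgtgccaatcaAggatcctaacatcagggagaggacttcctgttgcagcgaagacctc
The longest run in which the coding sequences do not differ is 188 bases. Of 322 windows of 75 bases, the length of the reads, 114 (35.4%) are identical in the coding sequences of Ly6c1 and Ly6c2. Over whole transcripts, 164 windows are shared, which is 21.4% of those of Ly6c1 and 22.7% of those of Ly6c2. A read that falls in such a window cannot be assigned to 1 of the pair by its sequence, and how such reads were counted is not stated. Ly6a and Ly6i, whose coding sequences have 86.4% identity, share 6 windows, and no other pair of the 9 genes shares one. Ly6e had 45.2% to 49.6% coding identity with Ly6a, Ly6c1, Ly6c2, Ly6d and Ly6i, and 62.5% was found between Ly6c1 and Ly6g.

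RefSeq promoters on GRCm38.p6 were at hand for 3 of the 9 genes, Ly6c1, Ly6c2 and Ly6g, which encode the Ly6 antigens that define M-MDSCs. For each, 1 of its windows of 250 bases upstream of an annotated start is shown. The capitals mark the letters TATAAA, which also occur in TATA boxes, and the purine-rich motif GAGGAAGT, a type of element that the myeloid factor PU.1 recognizes.
Ly6c1 promoter, chr15:75048838-75049087, minus strand: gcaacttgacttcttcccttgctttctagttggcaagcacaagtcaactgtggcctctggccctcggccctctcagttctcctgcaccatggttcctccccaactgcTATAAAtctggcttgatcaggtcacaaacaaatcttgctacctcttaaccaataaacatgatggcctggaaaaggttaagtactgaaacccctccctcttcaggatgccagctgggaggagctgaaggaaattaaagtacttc
Ly6c2 promoter, chr15:75111972-75112221, minus strand: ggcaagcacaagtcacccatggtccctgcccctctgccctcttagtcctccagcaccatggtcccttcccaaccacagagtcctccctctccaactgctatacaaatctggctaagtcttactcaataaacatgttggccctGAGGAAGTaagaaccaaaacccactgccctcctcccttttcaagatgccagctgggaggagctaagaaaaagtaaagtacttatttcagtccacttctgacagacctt
Ly6g promoter, chr15:75155011-75155260, plus strand: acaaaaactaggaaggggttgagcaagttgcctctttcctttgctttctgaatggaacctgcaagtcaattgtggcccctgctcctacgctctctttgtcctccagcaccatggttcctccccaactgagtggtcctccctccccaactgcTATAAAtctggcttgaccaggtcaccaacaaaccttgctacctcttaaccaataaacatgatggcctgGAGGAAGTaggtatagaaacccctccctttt
Both strands were searched, and every match lay on the strand shown. TATAAA was found in these windows of Ly6c1 and Ly6g and not in that of Ly6c2, and GAGGAAGT in those of Ly6c2 and Ly6g and not in that of Ly6c1. A second annotated start of Ly6c1 has GAGGAAGT upstream of it. Of 32851 mouse promoter windows of this length examined, 12.4% hold TATAAA and 2.44% hold GAGGAAGT. The STAT-type motif TTCNNNGAA (7.02% of windows), the GATA-type motif AGATAA (9.99%) and an interferon-stimulated response element motif (2.98%) were not found in any window of the 3 genes. The marked motifs do not overlap each other, and both TATAAA matches lie further upstream of the annotated start than a TATA box usually does. The Ly6c1 window had 71.9% identity with that of Ly6c2 over 228 aligned bases and 75.1% with that of Ly6g over 229, and the windows of Ly6c2 and Ly6g had 66.8% over 199.

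Ly6e and Ly6c2 carried most of the Ly6 reads in both libraries. Reads of the 9 genes made up 0.127% of all counts with GM-CSF alone and 0.0691% with CHBP (20975 and 11245 reads). Ly6e held 74.6% of them in CHBP- cells and 70.1% in CHBP+ cells, and Ly6c2 held 19.5% and 21.4%. Ly6d, Ly6i, Ly6a, Ly6c1 and Ly6g were present at lower levels, Ly6k had 3 reads in all and Ly6h none. Thus 8 of the 9 genes had a read and 7 reached 1 FPKM, in both libraries. In FPKM the order was Ly6e, Ly6c2, Ly6d, Ly6i, Ly6a, Ly6c1 and Ly6g in either library. Neighbors in this order differed beyond their 95% exact Poisson intervals in CHBP- M-MDSC, whereas in CHBP+ M-MDSC the intervals of Ly6i (6.41 to 8.51 FPKM) and Ly6a (5.90 to 7.25 FPKM) overlapped. Those of Ly6c1 (2.47 to 3.40 FPKM) and Ly6g (1.54 to 2.84 FPKM) overlapped there as well. These intervals cover counting error only.

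**Figure D1:**
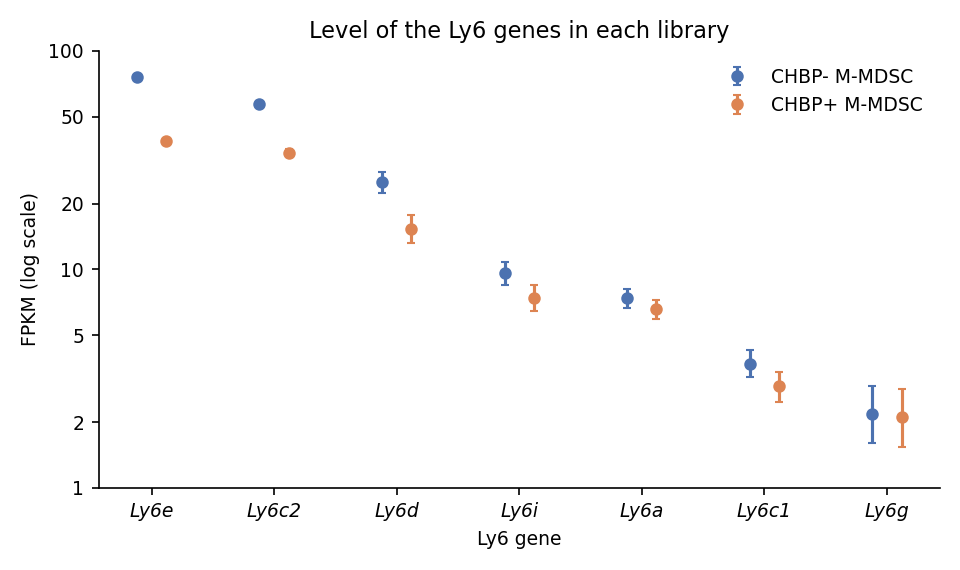
Level of 7 Ly6 genes in CHBP- and CHBP+ M-MDSC, in FPKM on a log axis, with 95% exact Poisson intervals of the reads as error bars (1 library per condition). Ly6e (76.0 and 38.8 FPKM) and Ly6c2 (56.9 and 34.0 FPKM) stand above the rest, and Ly6g is lowest at 2.19 and 2.12 FPKM.

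FPKM depends on the gene length used, and that length was unusual for several of these genes. The length implied by the deposited count and FPKM was 12485 bases for Ly6e, above the 4855 bases of its listed locus and the 2281 bases of its longest GENCODE M1 transcript. It was also longer than the locus for Ly6c2 (4361 against 3813 bases) and Ly6a (3452 against 3155 bases), as it was for 1128 of 17974 genes (6.28%). On the scale of CPM (counts scaled to the library total) per kb of the longest M1 transcript, Ly6e had levels of 416 and 212, Ly6c2 of 312 and 186, and Ly6a of 31.0 and 27.6. On that scale Ly6a moved up, ahead of Ly6d (27.0 and 16.4) and Ly6i (18.1 and 14.0), and Ly6c1 (14.5 and 11.4) and Ly6g (8.31 and 8.04) stayed last. The M1 model of Ly6g holds only 336 coding bases, which raises its value on this scale. The ratio of a gene between the libraries does not depend on the length used, apart from the pseudocount.

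To see how the Ly6 genes differed between the libraries, FPKM + 1 in CHBP+ M-MDSC was divided by FPKM + 1 in CHBP- M-MDSC and the log2 ratio taken, in which the added 1 understates differences of low genes. Ly6e, Ly6c2 and Ly6d were at least 1.5-fold lower in CHBP+ M-MDSC. Thus 3 of 7 Ly6 genes were at least 1.5-fold lower, against 2.89% of the 10948 genes with at least 1 FPKM, and 0 of 7 were at least 1.5-fold higher (3.42% of all genes). All 7 had a log2 ratio below 0, as 53.7% of all genes did, with a median of -0.33 for the 7 and -0.03 for all. In a two-sided exact binomial test of the reads, which compares the libraries for counting error and not the conditions, 4 of 7 were lower (22.2% of 14162 genes tested) and 0 higher (21.9%) at an adjusted p of at most 0.05 with Benjamini-Hochberg adjustment over all genes tested.

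**Figure D2:**
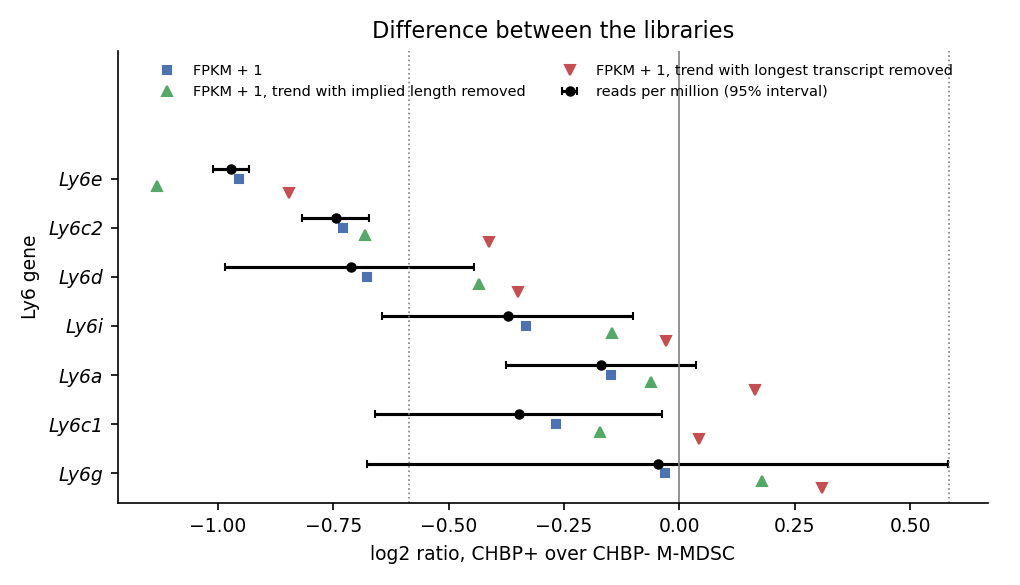
Log2 ratio (CHBP+ over CHBP-) of 7 Ly6 genes, as CPM with 95% Clopper-Pearson intervals (black), as FPKM + 1 (squares) and after removal of the trend with the implied length (upward triangles) or the longest M1 transcript (downward triangles), with dotted lines at 1.5-fold. By CPM, Ly6e, Ly6c2 and Ly6d lie lowest, at -0.97, -0.74 and -0.71, and the intervals of Ly6a (-0.38 to 0.04) and Ly6g (-0.68 to 0.58) include 0.

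Ly6e (ENSMUSG00000022587, chr15:74955051-74959905) had 15648 reads without CHBP and 7879 reads with it, at 76.0 and 38.8 FPKM. Its log2 ratio was -0.95, the lowest of the 9 genes. The ratio of its CPM was 0.510, with a 95% Clopper-Pearson interval from 0.496 to 0.524, and the adjusted p of the read test was too small for the calculation to hold. Ly6e was therefore the gene with both the highest level and the largest difference among the Ly6 genes.
Ly6c2 (ENSMUSG00000022584, chr15:75108158-75111970), the more abundant of the Ly6C genes, had 4091 and 2411 reads, at 56.9 and 34.0 FPKM. The log2 ratio was -0.73 and the CPM ratio 0.597 (95% interval 0.567 to 0.628), with an adjusted p of 4.91e-91 in the exact binomial test. The mRNA behind the Ly6C antigen was thus lower in CHBP+ M-MDSC. Protein at the surface was not analysed here.
Ly6d (ENSMUSG00000034634, chr15:74762056-74763620), the lymphoid progenitor marker, had 307 and 185 reads, at 25.0 and 15.3 FPKM. Its log2 ratio was -0.68, with a CPM ratio of 0.610 (95% interval 0.506 to 0.735) and an adjusted p of 5.19e-07 in the exact binomial test. Ly6d lay nearest to the 1.5-fold threshold among the 3 genes past it.

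The other Ly6 genes differed less. Ly6i (ENSMUSG00000022586, chr15:74979534-74983430), a close relative of Ly6a, had 262 and 200 reads, or 9.58 and 7.40 FPKM, and a log2 ratio of -0.33. Its CPM ratio was 0.773 (95% interval 0.640 to 0.933), with an adjusted p of 0.0161 in the exact binomial test. Ly6i was thus lower by the read test but within 1.5-fold.
Ly6c1 (ENSMUSG00000079018, chr15:75044018-75048830), the less abundant Ly6C gene, had 201 and 156 reads, or 3.70 and 2.91 FPKM, with a log2 ratio of -0.27. Its CPM ratio was 0.786 (95% interval 0.633 to 0.973), and the exact binomial p of 0.0261 became 0.0579 after adjustment. Ly6c1 therefore did not pass the test.
Ly6a (ENSMUSG00000075602, chr15:74994877-74998031), which encodes Sca-1, had 419 and 368 reads, or 7.36 and 6.55 FPKM, with a log2 ratio of -0.15. Its CPM ratio was 0.889 (95% interval 0.771 to 1.03) and its adjusted p 0.181 in the exact binomial test. A difference in Ly6a was not detectable at this depth, and the interval holds no decrease of 1.5-fold.
Ly6g (ENSMUSG00000022582, chr15:75155240-75159126), the neutrophil antigen that M-MDSCs lack by definition, had 46 and 44 reads, at 2.19 and 2.12 FPKM. Its log2 ratio was -0.03, its CPM ratio 0.969 and its adjusted p 0.961 in the exact binomial test. With so few reads, the 95% interval of the CPM ratio ran from 0.626 to 1.5, so a difference in either direction of nearly this size would not have been detectable.
Ly6k (ENSMUSG00000044678, chr15:74796874-74799986) had 1 and 2 reads, a CPM ratio of 2.03 with a 95% interval from 0.105 to 119. Its locus overlaps that of the predicted gene Gm17189, which had 0 reads. Ly6h (ENSMUSG00000022577, chr15:75551268-75567255) had 0 reads in either library, for which a limit of 3 reads allows up to 0.182 CPM (CHBP-) and 0.184 CPM (CHBP+).

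Short transcripts had lower ratios in these libraries, and most Ly6 transcripts are short. The longest M1 transcripts of Ly6c1, Ly6c2, Ly6a, Ly6i and Ly6d have 691 to 878 bases, and at those lengths the trend of log2 ratio over all genes lay between -0.30 and -0.33. For Ly6e the trend lay at -0.11. After the trend with this length was subtracted, the log2 ratio was -0.85 for Ly6e, -0.41 for Ly6c2, -0.35 for Ly6d and -0.03 for Ly6i, while those of Ly6c1 (0.04), Ly6a (0.16) and Ly6g (0.31) were above 0. Then 1 of the 7 genes, Ly6e, was at least 1.5-fold lower, against 1.06% of all genes. The median of the 7 was -0.03, beside -0.01 for all genes.
With the trend taken over the implied length instead, Ly6e (-1.13) and Ly6c2 (-0.68) were at least 1.5-fold lower, against 1.53% of all genes. Their implied lengths exceed their listed loci, so the trend subtracted was that of longer genes (0.18 for Ly6e and -0.05 for Ly6c2). With the M1 length it was -0.11 and -0.31. Ly6d came to -0.43, and 6 of 7 genes were below 0 (52.9% of all genes), Ly6g being above it at 0.18. The read test with either trend in its expectation still gave a lower Ly6e, Ly6c2 and Ly6d (for Ly6d, adjusted p of 0.00154 with the implied length and 0.0140 with the M1 length, exact binomial test), and Ly6i no longer passed it (adjusted p of 0.270 and 0.760). The cause of the trend was not tested.

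**Figure D3:**
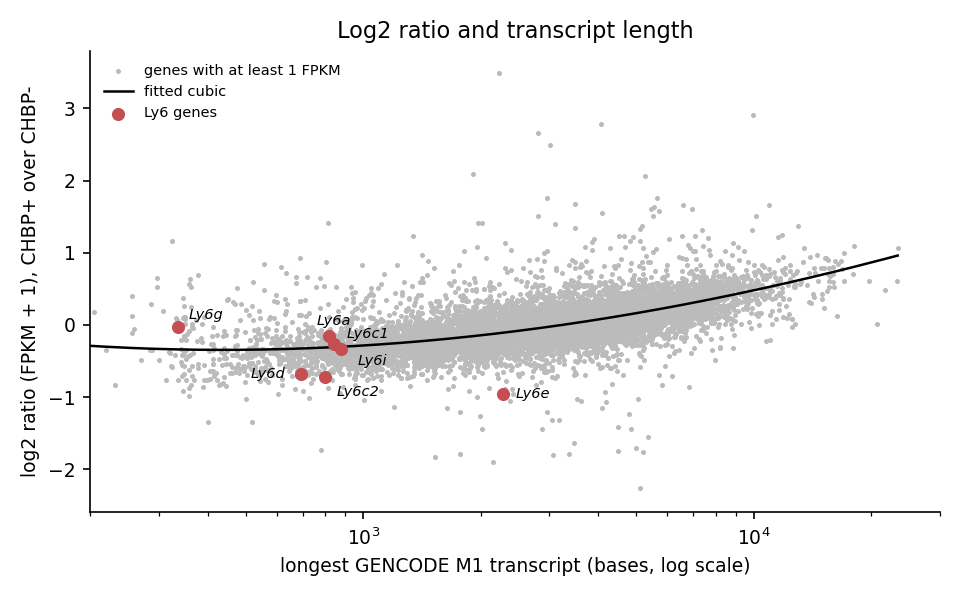
Log2 ratio against the length of the longest GENCODE M1 transcript (log axis, bases) for genes with at least 1 FPKM, with the fitted trend as a line and 7 Ly6 genes marked. Ly6e and Ly6c2 lie below the trend by 0.85 and 0.41, whereas Ly6i (-0.03) and Ly6c1 (0.04) lie close to it.

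Since reads of Ly6c1 and Ly6c2 can be confused, their counts were also added. The sum was 4292 reads without CHBP and 2567 with it, which is 260 and 158 CPM. The CPM ratio of the sum was 0.606 (95% interval 0.576 to 0.636), or -0.72 on the log2 scale, with an exact binomial p of 1.01e-92 for this 1 value. The sum was thus lower in CHBP+ M-MDSC by about the same factor as Ly6c2, however the reads were divided within the pair. With the trend removed, the log2 CPM ratio of the sum was -0.68 (implied length) and -0.41 (M1 length).
Ly6c2 made up 95.3% of the reads of the pair in CHBP- M-MDSC (95% Clopper-Pearson interval 94.6% to 95.9%) and 93.9% in CHBP+ M-MDSC (92.9% to 94.8%). That is 20.4 and 15.5 Ly6c2 reads per Ly6c1 read. The share differed between the libraries in a two-sided Fisher exact test (p = 0.0134), which assumes that reads were divided correctly within the pair. Reads shared by the pair make both shares uncertain by more than their intervals say.
The Ly6G to Ly6C balance, which separates granulocytic from monocytic MDSCs at the protein level, was low in both libraries. Ly6g reads were 1.06% of the reads of Ly6g, Ly6c1 and Ly6c2 in CHBP- M-MDSC (95% Clopper-Pearson interval 0.777% to 1.41%) and 1.69% in CHBP+ M-MDSC (1.23% to 2.26%). Whether these shares differ between the libraries was not tested, and overlap of the intervals does not decide it. There were 93.3 Ly6C reads per Ly6g read in CHBP- and 58.3 in CHBP+ M-MDSC, with the same Ly6g reads within counting error and fewer Ly6C reads.

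All 9 genes lie on chromosome 15 over 805.2 kb, by the deposited coordinates on GRCm38, in the order Ly6d, Ly6k, Ly6e, Ly6i, Ly6a, Ly6c1, Ly6c2, Ly6g and Ly6h. The reads were concentrated between Ly6e, at 193 kb from the start of Ly6d, and Ly6g, at 393 kb. The genes past 1.5-fold were not next to each other in this order, since Ly6i, Ly6a and Ly6c1 lie between Ly6e and Ly6c2. Among the 48 other genes from 200 kb before to 200 kb after the 9 genes, 27 had no read and 6 reached 1 FPKM. By FPKM + 1, 0 of these 6 were 1.5-fold lower (2.89% of all genes) and 0 were 1.5-fold higher (3.42%).
The neighbor most like the Ly6 genes was I830127L07Rik, listed in RefSeq as the family member Ly6a2. It had 274 and 185 reads, or 14.6 and 10.01 FPKM, with a log2 ratio of -0.51 and an adjusted p of 0.000230 in the exact binomial test. Beyond Ly6h, Zc3h3, which encodes a zinc finger protein, went the other way, with 105 and 179 reads, a log2 ratio of 0.56 and an adjusted p of 3.46e-05 in the exact binomial test. The other genes of this window at 1 FPKM or more were Them6, Gm5960, Zfp41 and Top1mt, and none of them passed the read test. Below 1 FPKM, Jrk was lower by the read test, with 60 and 31 reads, a CPM ratio of 0.523 and an adjusted p of 0.00905 (exact binomial test).

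**Figure D4:**
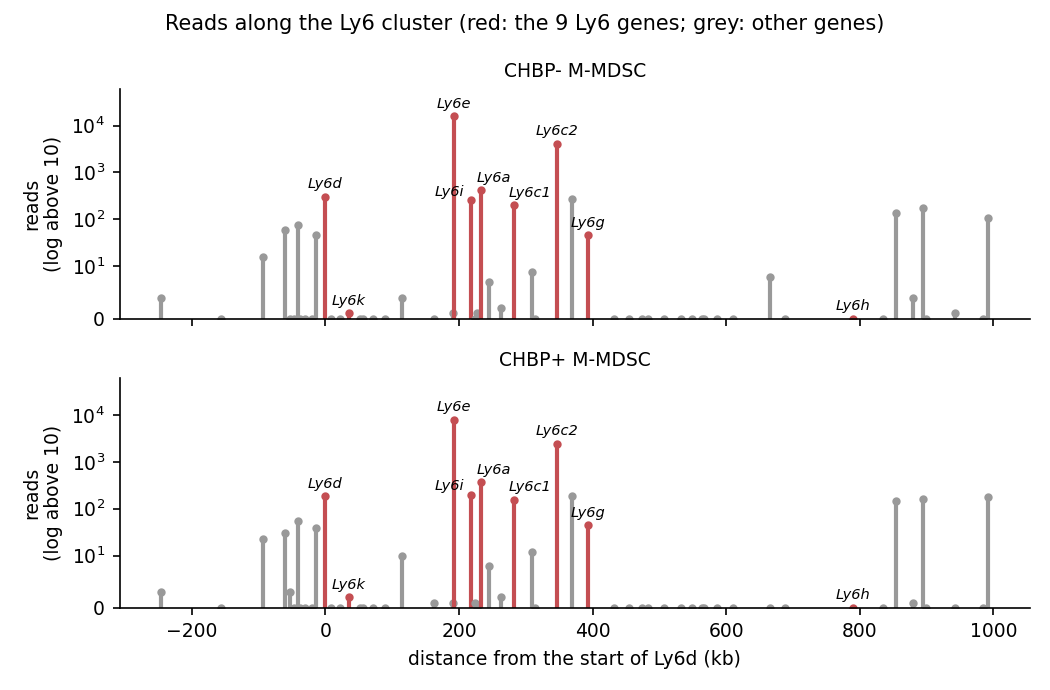
Reads of each gene in CHBP- (top) and CHBP+ M-MDSC (bottom) against distance in kb from the start of Ly6d, on an axis that is logarithmic above 10 reads, with Ly6 genes in red and other genes in gray. Reads peak at Ly6e (15648 and 7879) and Ly6c2 (4091 and 2411), while most gene models between Ly6g and Ly6h have none.

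Relatives outside the 9 genes, other proteins with a Ly6 or uPAR domain, were mostly silent. Of 33 listed, 32 were found and 19 had no reads, and 4 reached 1 FPKM. Plaur, the urokinase receptor, was the highest, with 14095 and 13009 reads (165 and 154 FPKM), and was slightly lower by the read test (log2 ratio -0.10, adjusted p of 1.53e-07, exact binomial test). With the trend removed, its log2 ratio was -0.08 (implied length) and 0.13 (M1 length). Cd59a, which encodes an inhibitor of complement lysis, had 108 and 46 reads and a log2 ratio of -0.66 (adjusted p of 3.54e-06, exact binomial test). It was the 1 gene of the list past 1.5-fold, but no longer with the trend removed (-0.58 with the implied length and -0.49 with the M1 length). Cd177, which encodes a neutrophil surface protein, had 425 and 461 reads and an adjusted p of 0.274 in the exact binomial test. In all, with no trend removed, 3 of 10 relatives tested were lower (Ly6a2, Cd59a and Plaur), beside 22.2% of all genes tested. Higher was 1 (Lypd6b, 7 and 19 reads, adjusted p of 0.0429, exact binomial test), beside 21.9%.
The GPI transamidase attaches GPI anchors to proteins such as these. Its 5 subunit genes had log2 ratios below 0 (53.7% of all genes), with 0 past 1.5-fold. By the read test 3 of 5 were lower (22.2% of all genes tested), namely Gpaa1, Pigu and Pigs (adjusted p of 3.19e-05, 0.00731 and 0.0446, exact binomial test).

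The other defining antigen, CD11b, is encoded by Itgam, which is listed as 2 overlapping genes. The first had 157 FPKM without and 232 FPKM with CHBP (log2 ratio 0.56, and 0.42 with the M1 trend removed), and the second 99.99 and 153 FPKM (log2 ratio 0.61), so Itgam was higher in the library in which Ly6c2 was lower. Only the second was past 1.5-fold, and reads may be counted in both.
Markers of other cell types were read in both libraries, although a CD11b+ Ly6G- Ly6C high sort would be expected to remove most B, T, erythroid and endothelial cells and Ly6G+ neutrophils. The counts of calls below are to be read beside the 22.2% of all genes tested that were lower by the read test and the 21.9% that were higher. In the classical monocyte list, to which Ly6C belongs as an antigen, 6 of 12 genes were higher and 3 lower by the read test. Fn1 (fibronectin, 62.5 and 112 FPKM) and Vcan (versican, 6.88 and 12.2 FPKM) were past 1.5-fold higher, but no longer with the trend removed (log2 ratios of 0.57 and 0.45 with the implied length, and of 0.45 and 0.15 with the M1 length). Plac8 (119 and 78.8 FPKM) and Hp (haptoglobin, 165 and 122 FPKM) were lower by the read test. Genes of this list thus went in both directions, with a median log2 ratio of 0.05. With the implied length trend removed, the median was 0.14 for this list, beside -0.17 for the 7 Ly6 genes. With the M1 length trend removed, the median of the 7 Ly6 genes was -0.03, beside -0.01 for all genes. The median of this list was not taken with the M1 trend, so the contrast of medians is given for the implied length only. With the M1 trend removed, log2 ratios in this list ran from -0.33 (Plac8) to 0.45 (Fn1).
The neutrophil list, which includes Ly6g, had all 15 genes at 1 FPKM or more, 9 lower and 1 higher by the read test. Its summed level was 3681 and 3300 FPKM, and its summed reads, not scaled by gene length, were 106753 and 102939. The 1 higher gene, Mmp8, had the highest level of the list (1290 and 1546 FPKM). The median log2 ratio of the list was -0.21, and -0.09 with the implied length trend removed. Of the other lists, the erythroid one (1305 and 602 FPKM, 6 of 7 genes lower) and the B cell one (41.7 and 28.4 FPKM, 3 of 6 lower) were lower in CHBP+ M-MDSC together with Ly6d, Ly6e and Ly6c2. The summed level was 340 and 285 FPKM for mast cell and basophil genes (5 of 8 lower and 2 higher), 380 and 350 FPKM for dendritic cell genes (3 of 10 in each direction, Xcr1 at 0), 485 and 511 FPKM for macrophage genes (2 of 8 higher and 1 lower) and 74.0 and 77.8 FPKM for patrolling monocyte genes (1 of 8 higher). For T cell genes the summed level was 6.48 and 5.84 FPKM (0 of 9 in either direction). For endothelial genes it was 23.6 and 25.8 FPKM (2 of 6 tested higher), of which Pecam1 held 18.5 and 18.8 FPKM. The 2 higher were Kdr (2.53 and 4.05 FPKM) and Vwf (1.91 and 2.51 FPKM). Cdh5, Tek and Emcn stayed below 1 FPKM in both libraries, and Cldn5 was at 0. T and endothelial cells also carry Ly6a and Ly6c1. Whether cells of these lists were present, and their part in the Ly6 differences, was not tested.

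**Figure D5:**
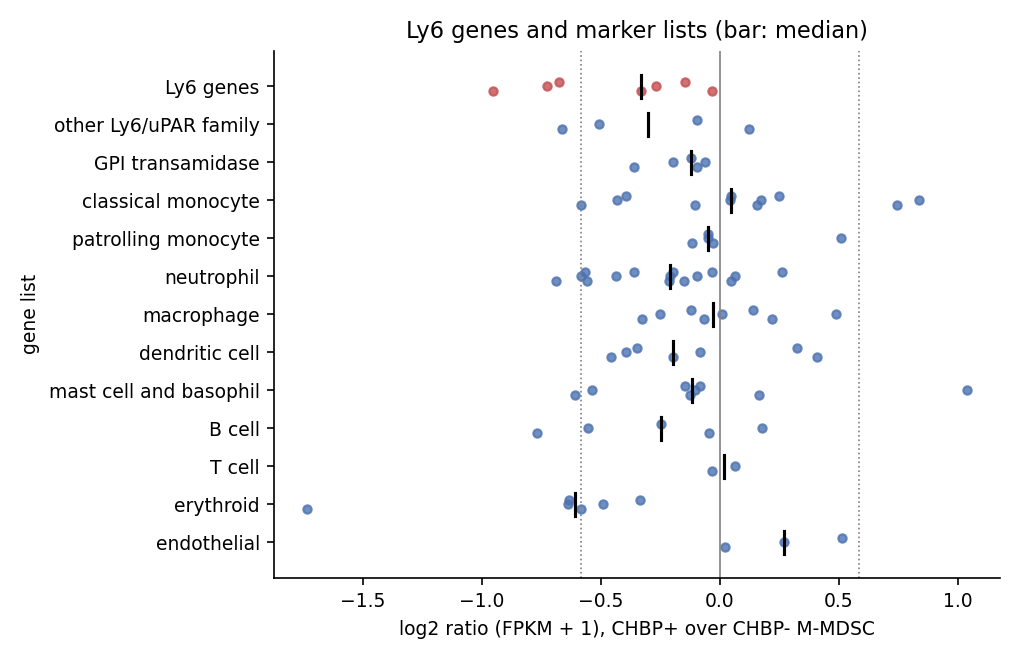
Log2 ratio (CHBP+ over CHBP-) of each gene with at least 1 FPKM in the Ly6 genes and in the marker lists, with points for genes, a bar for each list's median and dotted lines at 1.5-fold. The median is -0.33 for the Ly6 genes, 0.05 for classical monocyte genes, -0.21 for neutrophil genes and -0.61 for erythroid genes.

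The genes whose pair of log2(FPKM + 1) values lay nearest to that of a Ly6 gene were found by Euclidean distance over the 2 libraries. For Ly6c2 they were Atox1 (a copper chaperone, 54.7 and 33.8 FPKM, distance 0.0567), Gm8186 and Gm10269. For Ly6e they were Cox6a1 (a cytochrome c oxidase subunit, 76.6 and 42.7 FPKM, distance 0.137) and the ribosomal protein genes Rps21 and Rpl38, and 0 genes lay within 0.1 of it. For Ly6d they were Atp5d (an ATP synthase subunit, 25.4 and 15.4 FPKM, distance 0.0203), Timm13 and Fcho2. The nearest genes were Tceb1 for Ly6i, Fcgr4 for Ly6a, Phkg2 for Ly6c1 and 4932438H23Rik for Ly6g, each with 60 to 124 genes within 0.1, so that these levels are shared by many genes.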

How the data were processed

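mRNA of sorted mouse M-MDSCs was measured in 2 libraries, grouped by their labels. The authors trimmed and filtered single-end reads and removed ribosomal RNA reads. The methods name TopHat2, HT-seq and mm9, whereas the submitters' processing notes name HISAT2 2.0.4, Cufflinks 2.1.1, Cuffdiff and GRCm38; the deposited loci of all 9 genes overlap RefSeq genes on GRCm38. Handling of strand and of multi-mapping reads is not given in the sources used here. The deposited counts are raw reads per gene, and the deposited FPKM are those counts scaled by a gene length and the total count.

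From these were computed the log2 ratio with a pseudocount of 1, over genes that reached 1 FPKM in either library, and CPM ratios. Reads were compared by the two-sided exact binomial test over genes with at least 10 reads. Without molecular identifiers reads are not separate molecules, so tests and intervals cover only counting error, and with 1 library per condition no count model was fitted. Trends with length were cubic polynomials in log10 length, with the longest GENCODE M1 transcript (mm9, by gene identifier, 96.0% of genes kept) or the length implied by count and FPKM. The trend with M1 length, levels per M1 transcript and the sum without Ly6e were added after seeing the data. Other alternatives were a pseudocount of 0.1, a minimum of 5 FPKM, a fold of 2, CPM, median centring and the trimmed mean of M values (edgeR 4.0.16). Coding sequences were from GENCODE M1 and promoters from RefSeq.

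The genes named are the 9 Ly6 genes, genes within 200 kb of them, listed genes with the highest level or past 1.5-fold, and the 3 nearest genes by level. Other listed genes were named after their values were seen. The members and gene lists (Ly6 and uPAR relatives, sorting antigens, GPI transamidase, and markers of classical and patrolling monocytes, neutrophils, dendritic cells, macrophages, mast cells and basophils, T, B, erythroid and endothelial cells) were chosen with earlier results of these data known. Ly6g2 of the relatives was not matched. The scripts used Python 3.11.15, numpy 2.4.6, pandas 2.3.3, scipy 1.17.1, Biopython 1.88, matplotlib 3.10.9 and R 4.3.3, and were tested on simulated data.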

Additional observations from a re-analysis of the deposited data

How the results depend on the processing

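No paired analysis was possible because each condition has 1 library, which leaves no replicate to omit. Of the 7 Ly6 genes, 3 were at least 1.5-fold lower with the settings of the report, 1 with the M1 length trend removed and 0 at a fold of 2. No Ly6 gene was at least 1.5-fold higher under any of these alternatives. With the M1 trend removed, the log2 ratio turned to 0.042 for Ly6c1, 0.16 for Ly6a and 0.31 for Ly6g, and with the implied length trend removed to 0.18 for Ly6g. By FPKM, the Ly6c2 share of the Ly6C pair was 93.9% in CHBP- and 92.1% in CHBP+ M-MDSC. The summed Ly6 reads had a CPM ratio of 0.543 (95% interval 0.530 to 0.555), and of 0.640 (0.613 to 0.668) without Ly6e. The 4 Ly6 genes lower by the read test became 3 with either trend in its expectation. Over all genes, 374 were higher and 316 lower by 1.5-fold, against 665 and 571 with a pseudocount of 0.1, 218 and 209 with a minimum of 5 FPKM, 85 and 46 at a fold of 2, 312 and 168 with the implied length trend removed, 229 and 111 with the M1 trend removed, and 609 and 395 with CPM. Depth limits Ly6g, Ly6k and Ly6h most. The cause of these shifts was not tested.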
